A study of Mus musculus with 9 samples.

Results

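H3K4me3 and H3K27ac were compared at the ends of protein-coding genes in LSK cells, the Lin- Sca-1+ c-Kit+ gate of mouse bone marrow that holds stem cells and early multipotent progenitors. All 20665 protein-coding genes on chromosomes 1 to 19 were placed in 4 classes by whether an H3K4me3 peak, an H3K27ac peak, both or neither lay within 1 kb of an annotated gene end, out of 21900 protein-coding genes in the gene table. The data are CUT&Tag peak lists, 2 of the 9 libraries of a study of the chromatin protein DEK. In CUT&Tag an antibody tethers a transposase, which cuts and tags the DNA beside the bound histone mark. Both libraries came from Cre-negative C57BL/6 Dek fl/fl mice (called fl) aged 12 weeks, with about 50000 LSK cells sorted for each. Lists from LSK cells of Dek fl/fl mice of the same strain and age that carry Tie2-Cre (cKO) are set beside them. The Tie2 promoter drives Cre in endothelial and blood cells, so deletion is not limited to LSK cells. DEK and H3K9ac lists from sorted stem cells (HSC) are used in 1 comparison. Each mark had 1 library per genotype, so nothing below has a replicate check, and the labels do not say how many animals gave the cells. The lists hold no read counts, so the depth of each library is unknown and an absent peak is not an absent mark; a mark on few cells and a weak mark on all cells cannot be told apart. Intervals in brackets are 95% exact binomial intervals and cover counting error only.

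H3K4me3 is trimethylation of lysine 4 of histone H3. It is laid down around start sites by the SET1 and MLL complexes, which are drawn to unmethylated CpG islands, and it marks promoters that are active or open to activation. H3K27ac is acetylation of lysine 27 by the acetyltransferases p300 and CBP. It marks active promoters and active enhancers, so a promoter with H3K4me3 but little H3K27ac is generally read as less active or poised, and H3K27ac away from promoters as enhancer activity. In stem and progenitor cells, genes of several blood lineages are known to carry open promoter chromatin before the lineage is chosen.

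The promoters below, from RefSeq for the GRCm38.p6 assembly (the coordinates of mm10), run from 250 bases before to 50 bases after the annotated start. They are shown because the classes differed in CpG content. Each CG pair is in capitals, and sequences run 5′ to 3′ along the gene.
Ndel1, both marks, chr11:68853086-68853385, minus strand: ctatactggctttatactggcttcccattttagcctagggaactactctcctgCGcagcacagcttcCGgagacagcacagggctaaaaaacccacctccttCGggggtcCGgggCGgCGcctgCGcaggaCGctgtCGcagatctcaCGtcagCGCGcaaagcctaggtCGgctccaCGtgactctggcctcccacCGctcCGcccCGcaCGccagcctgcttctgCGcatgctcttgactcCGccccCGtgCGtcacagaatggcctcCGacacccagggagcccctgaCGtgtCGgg
Gata2, H3K4me3 only, chr6:88193641-88193940, plus strand: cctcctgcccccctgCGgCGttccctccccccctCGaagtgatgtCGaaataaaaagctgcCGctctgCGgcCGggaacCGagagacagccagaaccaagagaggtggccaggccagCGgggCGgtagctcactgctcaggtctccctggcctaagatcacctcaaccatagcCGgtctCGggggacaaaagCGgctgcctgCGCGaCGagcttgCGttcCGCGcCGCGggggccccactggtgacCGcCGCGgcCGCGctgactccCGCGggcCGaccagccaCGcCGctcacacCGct
Mpo, H3K4me3 only, chr11:87793534-87793833, plus strand: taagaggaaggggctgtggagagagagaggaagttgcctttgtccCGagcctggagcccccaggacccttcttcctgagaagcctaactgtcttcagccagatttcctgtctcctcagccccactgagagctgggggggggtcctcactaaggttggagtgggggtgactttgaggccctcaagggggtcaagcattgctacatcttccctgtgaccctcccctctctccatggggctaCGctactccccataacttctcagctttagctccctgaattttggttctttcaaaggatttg
Irf4, H3K27ac only, chr13:30748983-30749282, plus strand: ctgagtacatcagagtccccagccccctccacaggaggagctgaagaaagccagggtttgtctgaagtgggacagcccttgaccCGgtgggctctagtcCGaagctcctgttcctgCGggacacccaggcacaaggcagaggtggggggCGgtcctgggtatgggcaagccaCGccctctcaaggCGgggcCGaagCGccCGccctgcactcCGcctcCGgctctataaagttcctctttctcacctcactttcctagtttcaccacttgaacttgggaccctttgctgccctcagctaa
Elane, neither mark, chr10:79886062-79886361, plus strand: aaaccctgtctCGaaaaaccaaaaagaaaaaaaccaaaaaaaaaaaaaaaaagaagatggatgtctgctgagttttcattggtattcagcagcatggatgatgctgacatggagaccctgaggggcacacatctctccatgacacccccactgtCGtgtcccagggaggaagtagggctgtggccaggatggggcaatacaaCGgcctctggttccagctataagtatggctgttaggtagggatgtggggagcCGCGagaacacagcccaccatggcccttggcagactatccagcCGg

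The promoter of Ndel1, a dynein regulator, held 25 CpG pairs, that of Gata2, a stem cell transcription factor, 32, and that of Irf4, a lymphoid and myeloid factor, 11. The promoter of Elane, the neutrophil elastase gene, held 6 and that of Mpo, the myeloperoxidase gene, 2. The Ndel1 H3K4me3 peak (chr11:68852492-68853320) and H3K27ac peak (chr11:68852575-68853327) both covered the start. The Irf4 H3K27ac peak (chr13:30748979-30749279) covered nearly the whole printed promoter. The Gata2 H3K4me3 peak began 151 bp past the start and that of Mpo 853 bp past it.

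H3K4me3 lay at an end of 9330 genes, 45.1% of all, and H3K27ac at an end of 4733, or 22.9%. Both marks were found at 4521 genes (21.9%, 21.3 to 22.5), H3K4me3 only at 4809 (23.3%, 22.7 to 23.9), H3K27ac only at 212 (1.03%, 0.893 to 1.17) and neither at 11123 (53.8%, 53.1 to 54.5). With all peaks, most genes with H3K27ac at an end thus also had H3K4me3. Of the genes with H3K4me3, 48.5% (47.4 to 49.5) also had H3K27ac, and of the genes with H3K27ac, 95.5% (94.9 to 96.1) also had H3K4me3. The first of these shares depends on the weak peaks kept. The second changed little without them and fell with a fixed number of best ranked peaks. With peaks under a −log10 q of 10 left out, H3K27ac was found at 1591 of 8317 genes with H3K4me3 (19.1%), and H3K4me3 at 1591 of 1679 genes with H3K27ac (94.8%). With the 5000 best ranked peaks of each list these were 1174 of 5276 (22.3%) and 1174 of 1553 (75.6%). In 4460 of the 4521 genes with both marks (98.7%) the peaks themselves overlapped. Where the promoter table gave a strand (16457 genes), the H3K4me3 peak was at the start in 98.0% of genes with both marks and 97.7% of genes with H3K4me3 only. The H3K27ac peak was at the start in 96.4% of genes with both marks and in 88.8% (83.2 to 93.0) of genes with H3K27ac only.

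A gene end is not every promoter. Among genes of the neither class 985 (8.86%) had an H3K4me3 peak inside the gene, and 264 had one 1 to 500 bp beyond the window. Of the genes with H3K4me3 only, 129 had an H3K27ac peak 1 to 500 bp beyond the window. An end peak was shared with another gene in 36.2% of genes with both marks and 26.4% of genes with H3K4me3 only, so neighbours on a shared promoter are counted once each.

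At genes with both marks the H3K4me3 peaks were wider and ranked higher than at genes with H3K4me3 only. The summed width of H3K4me3 end peaks had a median of 923 bp (quartiles 716 and 1210) at genes with both marks and 791 bp (560 and 1088) at genes with H3K4me3 only. The median gene with both marks had its best H3K4me3 peak within the top 32.6% of the list, ranked by the authors' −log10 q, and the median gene with H3K4me3 only within the top 54.7%. The authors' fold enrichment of that peak, its summit over the caller's background in the same library, had medians of 10.4 and 9.21. The quartiles of the classes overlapped in each of these measures. H3K27ac end peaks were narrow, with a median of 391 bp at genes with both marks and 335 bp at genes with H3K27ac only. The H3K27ac list held no peak under 301 bp, which was also the lower quartile at genes with H3K27ac only. That lower bound limits the contrast of widths. H3K27ac end peaks stood low in their own list, at the top 63.7% and the top 76.3%. The best H3K27ac end peak of any gene with both marks was rank 709 of 9774.

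H3K27ac was found less often at genes whose H3K4me3 peak ranked lower. With these 9330 genes split into 5 equal groups, H3K27ac was found at 66.6% of the best ranked group, then at 59.1%, 51.7%, 40.8% and 24.1% of the lowest. By width the widest group had 56.4% and the narrowest 29.3%. By fold the highest group had 61.6% and the lowest 30.3%. Within the widest group the share was 66.1% (53.0 to 77.7, 62 genes) at the highest folds and 49.1% (44.6 to 53.6, 499 genes) at the lowest. Within the narrowest group it was 50.6% (44.3 to 56.9) and 18.4% (15.6 to 21.4). Width and fold therefore each went with H3K27ac when the other was held within a group. Whether a weaker H3K4me3 promoter has less H3K27ac, or only a peak below what this library could call, cannot be told apart.

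The cKO lists, which the classes did not use, were then read at the same genes. A cKO H3K4me3 end peak was present at 97.8% of genes with both marks, 90.2% of genes with H3K4me3 only, 15.6% of genes with H3K27ac only and 2.69% of genes with neither. A cKO H3K27ac end peak was present at 98.9%, 64.8%, 85.8% and 12.0% of the same classes. The cKO H3K27ac list marked 9102 of these genes against 4733 in the fl list. Genes with H3K4me3 only thus often had H3K27ac in the other genotype, and depth, genotype and library cannot be told apart as the source. The cKO H3K4me3 widths had medians of 884 bp at genes with both marks and 775.5 bp at genes with H3K4me3 only. In the cKO H3K27ac list the best peaks of genes with both marks stood within the top 30.4% at the median, against the top 54.0% for genes with H3K4me3 only.

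Taken over all peaks on chromosomes 1 to 19 rather than genes, the lists were nearly equal in length and unlike in place. H3K4me3 had 10199 peaks and H3K27ac 9774. The median width was 790 bp for H3K4me3 and 417 bp for H3K27ac. At gene ends lay 80.0% of H3K4me3 peaks and 41.1% of H3K27ac peaks, while 5.20% and 38.3% lay outside genes. An overlap of at least 1 bp with the other mark was found for 43.3% of H3K4me3 peaks and 45.6% of H3K27ac peaks. Among H3K27ac peaks it was 94.0% at gene ends and 12.0% away from them.

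Rank turned the lists in opposite directions. In the strongest of 10 equal rank groups 87.7% of H3K4me3 peaks lay at a gene end and 69.8% overlapped H3K27ac, against 52.2% and 11.4% in the weakest group. In the strongest group of the H3K27ac list 0.717% lay at a gene end (7 of 977) and 0.512% overlapped H3K4me3, against 62.5% and 65.8% in the weakest. Outside genes lay 72.3% of the strongest H3K27ac group and 19.3% of the weakest. The strongest H3K27ac peaks recurred in the cKO H3K27ac list (99.9%), as did 84.9% of the weakest group and 87.7% of all. Of the strongest, 18.9% overlapped a DEK peak of any HSC library, where 2.35% of the weakest group did. Most of those DEK overlaps came from DEK replicate 3 (18.4% of the strongest group alone). A H3K9ac peak of either HSC library overlapped 4.71% of the strongest and 1.53% of the weakest group. What these strong H3K27ac peaks mark was not tested, and neither a genome sequence nor a list of regions prone to excess reads was used here. The ranks of H3K27ac end peaks given above are counted in a list that holds them. At gene ends H3K27ac peaks were narrower and weaker than away from them (382 and 452 bp, −log10 q of 8.60 and 14.0), while H3K4me3 peaks were wider and stronger there (821 and 647 bp, 26.9 and 14.7).

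**Figure D1:**
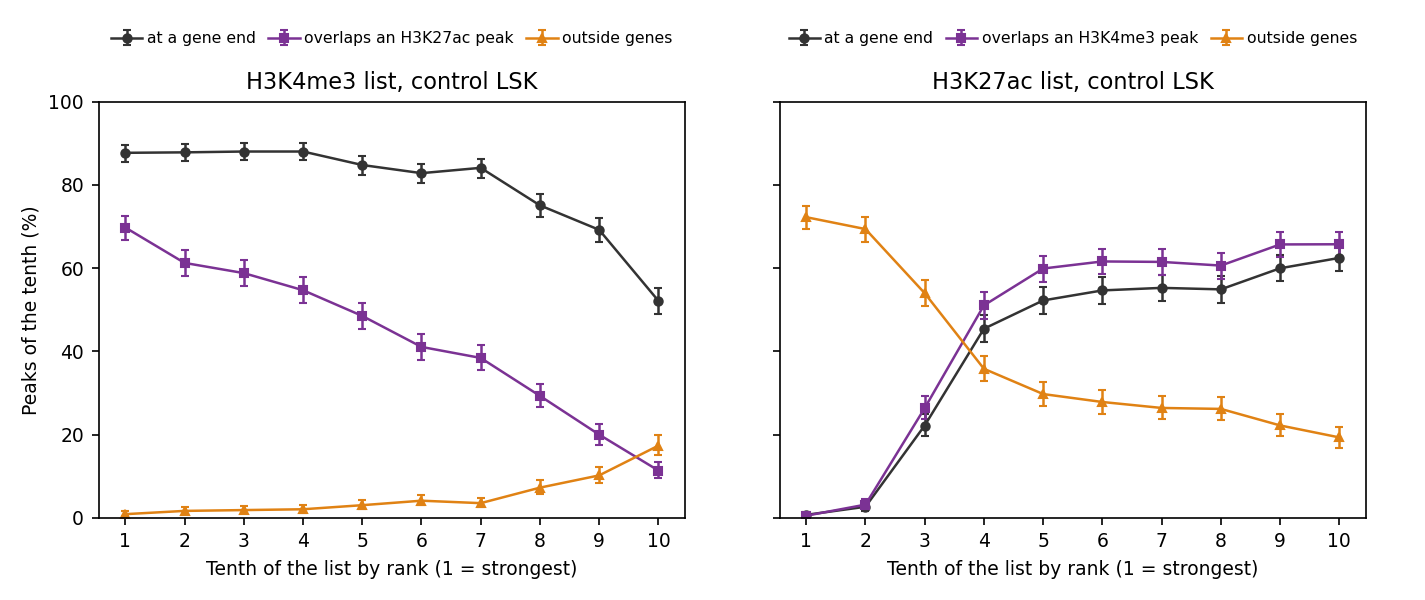
Share of peaks (%, y axis) at a gene end, overlapping the other mark or outside genes, in 10 equal groups by rank (x axis, 1 the strongest), for the H3K4me3 list (left) and the H3K27ac list (right) of fl LSK cells; bars are 95% exact binomial intervals. H3K4me3 peaks overlap H3K27ac in 69.8% of the strongest group and 11.4% of the weakest, while H3K27ac peaks overlap H3K4me3 in 0.512% and 65.8%.

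At genes with both marks the summits were offset. The H3K4me3 summit of the best start peak lay a median of 191.5 bp downstream of the start (3602 genes, quartiles 36.25 and 302.8) and the H3K27ac summit 97 bp downstream (3513 genes, quartiles -34 and 206). Relative to the start, the edges of H3K4me3 peaks had medians of -221.5 and 629 bp, and those of H3K27ac peaks -99 and 307 bp. The start itself was covered in 83.5% of genes by H3K4me3 and in 65.4% by H3K27ac. The H3K4me3 summit at genes without H3K27ac stood at the same distance, 192 bp.

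**Figure D2:**
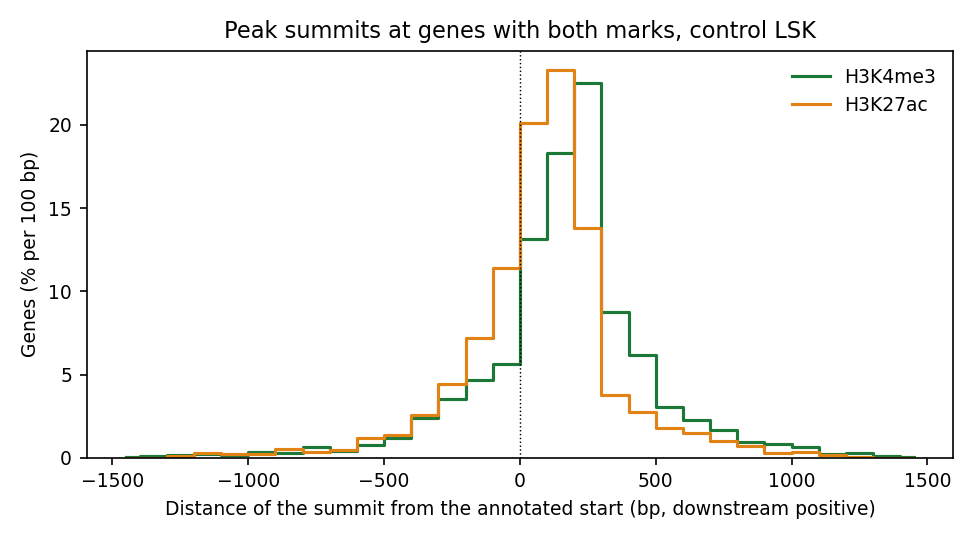
Distance of the summit of the best start peak from the annotated start (x axis, bp, downstream positive) against the share of genes per 100 bp (y axis, %) at genes with both marks and a known strand. Both marks peak downstream of the start, H3K4me3 at a median of 191.5 bp and H3K27ac at 97 bp.

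Promoter sequence, which the classing did not use, was read for the 16457 genes with a promoter in the table. These hold 0 of 511 genes on chromosome 18 and 422 of 776 on chromosome 15, so the shares are not an even sample of the chromosomes. CpG-rich promoters, with CpG observed over expected of at least 0.6 and GC of at least 55%, made up 77.0% of genes with both marks and 61.6% of genes with H3K4me3 only. They made up 50.0% of the 178 genes with H3K27ac only, 19.5% of genes with neither and 42.7% of all. The median promoter held 24 CpG pairs with both marks, 20 with H3K4me3 only, 18 with H3K27ac only and 5 with neither. Among genes with H3K4me3, H3K27ac was found at 54.8% (53.4 to 56.1) of CpG-rich and 36.7% (34.8 to 38.7) of CpG-poor promoters. CpG-rich promoters with neither mark numbered 1693 of 7030 (24.1%).

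**Figure D3:**
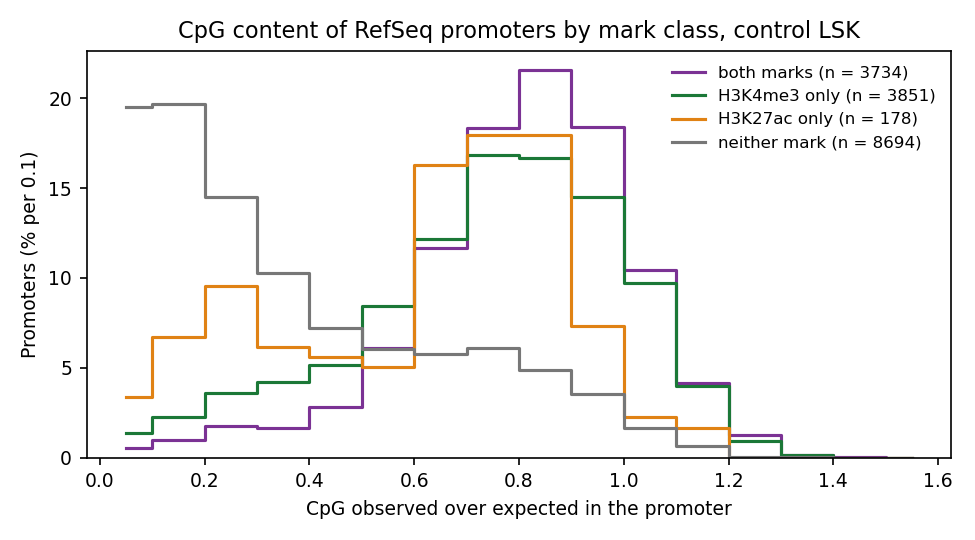
CpG observed over expected in RefSeq promoters (x axis) against the share of promoters per 0.1 (y axis, %), one line per class; values above 1.6 fall in the last bin. Genes with both marks lie mostly above 0.6, with a median of 0.826, and genes with neither mark mostly below, with a median of 0.271; genes with H3K27ac only spread over both ranges.

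Short motifs, were searched as exact letters on both strands of the same windows. The GC box (GGGCGG) was found in 74.6% of promoters with both marks, 63.7% with H3K4me3 only, 57.3% with H3K27ac only, 28.2% with neither and 47.3% of all. The NRF1 core (GCATGCGC) was found in 6.91%, 5.66%, 1.69% and 1.41% of the classes in that order and in 3.66% of all, and the cyclic AMP element (TGACGTCA) in 4.31%, 3.22%, 2.25% and 1.22%, with 2.40% of all. The TATA box (TATAAA) ran the other way, with 5.17%, 6.44%, 15.7% and 20.2%, and 13.5% of all, as did the GATA letters (AGATAA) with 4.66%, 5.90%, 9.55% and 13.8%, and 9.85% of all. Of the promoters shown above, that of Irf4 held 1 TATA match and 2 GC box matches, and that of Ndel1, with both marks, 1 and 3. The CCAAT letters of NFY were in 47.8% (40.2 to 55.4) of promoters with H3K27ac only and 39.1% of all. A match is only a run of letters, and the GC box, NRF1 and cyclic AMP letters each hold a CpG, so they are not separate from CpG content.

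Stem and progenitor genes were then read by role. These lists, like the classes, were chosen with earlier results of these data known. Of 30 stem cell transcription factors, 23 (76.7%) had H3K4me3 against 45.1% of all genes, but 3 (10.0%) had H3K27ac against 22.9% of all. Their classes were 3 with both marks, 20 with H3K4me3 only, 0 with H3K27ac only and 7 with neither. Given H3K4me3, H3K27ac was found at 13.0% of them and at 48.5% of all genes. These shares hold for gene ends only. Inside the gene, H3K27ac was found at 8 of the 30, among them 3 with H3K4me3 only, against 27.3% of all genes. The 3 with both marks were Etv6, an ETS factor, Mycn, a MYC family factor, and Ikzf2, an Ikaros family factor. Mycn had a wide H3K4me3 peak of 2001 bp and a 301 bp H3K27ac peak, the least width in that list.

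The 20 genes with H3K4me3 only stood at both high and low ranks. Mecom, the factor EVI1, had an H3K4me3 peak within the top 3.77% of the list, at a fold of 9.81 and 911 bp wide. Its nearest H3K27ac peak lay 1113 bp from the gene end, just outside the window. Tal1, a basic helix-loop-helix factor, had a peak of 1935 bp in the top 8.88%, and Lyl1, its close relative, one of 2055 bp in the top 11.7%. Runx1, a founder of definitive blood formation, had 1160 bp in the top 22.1%. Their nearest H3K27ac peaks lay 69293 bp (Tal1), 127380 bp (Lyl1) and 95946 bp (Runx1) away. Lower in the list stood Meis1, a HOX partner (1268 bp, fold 2.95), Prdm16 (1874 bp, fold 5.10), Gata2 (499 bp, fold 3.70) and Hoxa9 (752 bp, fold 3.16). In the cKO list 10 of the 20 had H3K27ac at an end (50.0%), against 64.8% of all genes with H3K4me3 only, among them Mecom, Tal1, Lyl1, Meis1 and Gata2. The 7 with neither were Hlf, Lmo2, Ldb1, Erg, Nfe2, Sox17 and Tcf15, and the first 5 of these carried H3K4me3 inside the gene, where the rule does not look.

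The H3K4me3 of these factors was mostly of low fold and varied in width. Of the 23, 19 (82.6%) fell in the lowest of 5 fold groups, where 20.0% of all marked genes fall by construction, and the median fold was 5.16 against 9.85 over all marked genes. Widths ran from 453 to 2146 bp, 9 of 23 (39.1%) were in the widest group, and 8 of 23 (34.8%) were in both, against 5.35% of all. In the lowest fold group also stood 12 of 17 myeloid factors (6 of them wide), 9 of 16 lymphoid factors (5 wide) and 17 of 25 immediate early genes (14 wide). Low fold was not particular to factors. All 7 myeloid effectors with H3K4me3, 3 of 5 lymphoid effectors, 5 of 6 endothelial genes and 5 of 6 Hox cluster genes also stood there. Complex I subunits had 3 of 35 there (1 wide) and translation initiation factors 4 of 49 (1 wide). Width alone did not set the stem cell factors apart, as 50.0% of chromatin regulators, 52.6% of Srsf and Sf3 splicing factors and 39.5% of cell cycle genes with H3K4me3 were in the widest group. H3K27ac was found at 3 of the 23 stem cell factors with H3K4me3 (13.0%). Over all genes it was 30.3% in the lowest fold group and 49.1% of those that were also in the widest. Of the 23 factors 19 were in the lowest fold group and 8 in both, so the sets are not matched. Whether these few genes differ from others of like fold was not tested.

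**Figure D4:**
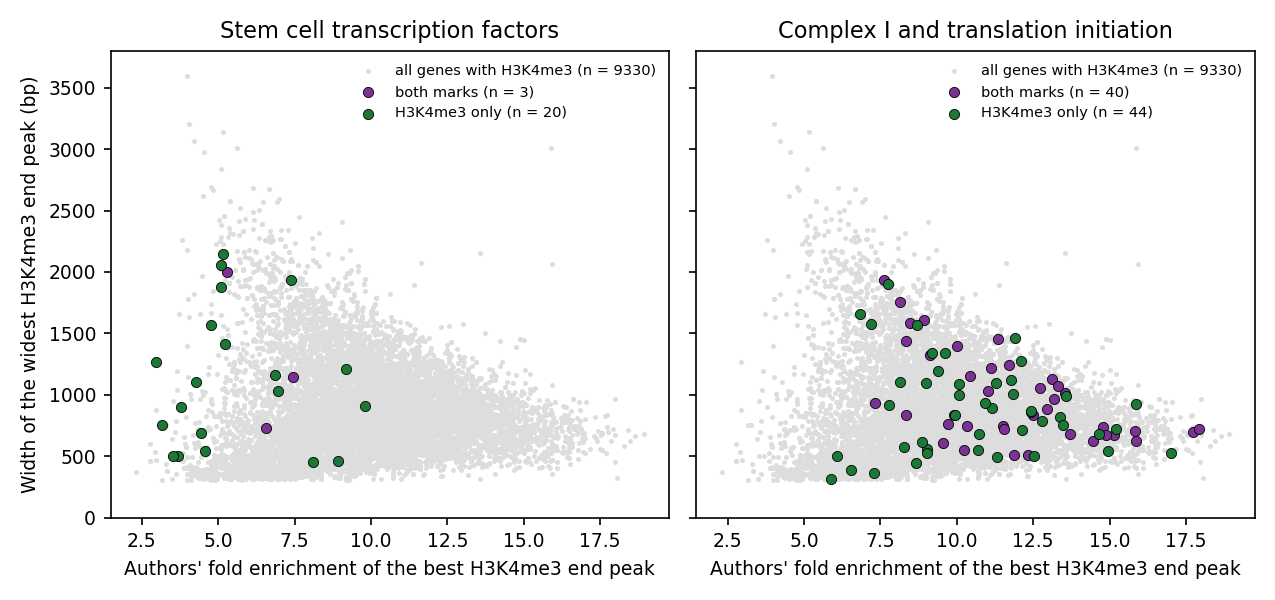
Authors' fold of the best H3K4me3 end peak (x axis) against the width of the widest H3K4me3 end peak (y axis, bp) in fl LSK cells, one point per gene, all 9330 marked genes in grey. Stem cell transcription factors (left) gather at low fold, 19 of 23 in the lowest fold group; complex I subunits and translation initiation factors (right) spread over higher folds.

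Stem and progenitor surface genes were split. Of 28, 7 had both marks, 13 H3K4me3 only and 8 neither, a share with H3K27ac near the 22.9% of all genes. Both marks lay at Flt3, the progenitor growth factor receptor, at Cxcr4, the CXCL12 receptor that holds stem cells in the niche, at Cd9, Il6st and the integrins Itga4, Itga6 and Itgb1. Cxcr4 had H3K4me3 of 2017 bp in the top 8.74%. Kit, the stem cell factor receptor by which the cells were sorted, had H3K4me3 of 1586 bp in the top 58.6% and its nearest fl H3K27ac peak 483552 bp from an end, although the cKO list had one at its end. Cd34 had H3K4me3 of 1585 bp and no H3K27ac at an end. Procr, the endothelial protein C receptor, had a weak H3K4me3 peak in the top 98.8%. Ly6a, which encodes Sca-1, the other sort marker, and Slamf1, which encodes CD150, had neither mark in the fl or the cKO lists. The nearest H3K4me3 peak was 37851 bp from Ly6a and 84314 bp from Slamf1. Neither mark was thus called at the gene for the sort marker Sca-1.

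Transcription factors of the lineages held H3K4me3 more often than the genes that carry out lineage functions. H3K4me3 was at an end of 68.0% of myeloid and 51.6% of lymphoid factors, and of 20.6% of myeloid and 13.5% of lymphoid effectors. Over all genes it was 45.1%, so by gene ends alone the lymphoid factors stood near that level. Of the 15 lymphoid factors with neither mark at an end, however, 8 held H3K4me3 inside the gene, as did 3 of the 7 such myeloid factors. Of all genes with neither mark 8.86% did. Of 25 myeloid factors, 7 had both marks, 10 H3K4me3 only, 1 H3K27ac only and 7 neither, with both marks at 28.0% against 21.9% of all genes. Of 34 myeloid effector genes 0 had both, 7 H3K4me3 only, 1 H3K27ac only and 26 neither. Among the factors, Xbp1, the plasma cell and stress response factor, had both marks, with H3K4me3 in the top 2.98% (1437 bp), as had Irf2 (1877 bp), Irf1, Irf8, Cebpd, Klf2 and Jun. Irf8, which directs monocyte fate, was weak in both lists, in the top 92.3% and the top 96.5%. Cebpa, which opens the granulocyte path, had one of the widest H3K4me3 peaks of any listed factor at 2671 bp, at a fold of 4.84, and no fl H3K27ac at an end. Spi1, which encodes PU.1, had a narrow H3K4me3 peak of 379 bp in the top 93.6%. Irf4 had H3K27ac only, at the least width of that list (301 bp) and in the top 83.8%. Irf4 had no end peak in the cKO lists of either mark. The marked effectors were Prtn3, the proteinase 3 gene (1495 bp, top 35.3%), Mpo (1394 bp, top 83.3%), Csf3r, Csf2ra, Cd14, Ly6c2 and Fcer1g, all without H3K27ac. Prtn3 and Mpo are granule genes known from early progenitors. Fcgr3, an Fc receptor gene, had H3K27ac only, with an H3K4me3 peak 1176 bp away.

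In the fl lists H3K27ac was at an end of 1 of 31 lymphoid factors (3.23%), against 22.9% of all genes. Inside the gene it was found at 7 of the 31, against 27.3% of all genes. Of these factors 1 had both marks, 15 H3K4me3 only and 15 neither, while of 37 lymphoid effectors 0 had both, 5 H3K4me3 only, 1 H3K27ac only and 31 neither. Notch1, the receptor that sets T cell fate, was the factor gene with both marks, its H3K4me3 1771 bp wide in the top 10.0%. Foxp1 (1889 bp, top 4.99%), Tcf3, which encodes E2A (922 bp, top 5.05%), Ikzf1 (900 bp, top 19.3%) and Sox4 (2288 bp, top 16.6%) had H3K4me3 only. The nearest H3K27ac peaks of Foxp1 and Sox4 lay 1085 and 1202 bp from an end, just past the window. In the cKO list 12 of the 15 had H3K27ac (80.0%), the same share as of the myeloid factors with H3K4me3 only (8 of 10). Over all genes with H3K4me3 only the share was 64.8%. The marked effectors were Cd79b, a B cell receptor chain (1079 bp), Dntt, the terminal transferase of early lymphoid progenitors (751 bp), Igll1, Blnk and Cd3d, and all 5 stood between the top 59.1% and the top 98.5%. Lck, a T cell kinase, had H3K27ac only, in the top 96.3%. Rag1 and Rag2 had neither, and Il7r, the interleukin 7 receptor gene, had its nearest H3K4me3 peak 1054 bp from an end.

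Erythroid and megakaryocyte genes held H3K4me3 at 10 of 31 and 10 of 30, below the 45.1% of all genes, and both marks at about the rate of other genes with H3K4me3. Of 31 erythroid genes 6 had both, 4 H3K4me3 only, 1 H3K27ac only and 20 neither, so that H3K27ac was found at 6 of the 10 with H3K4me3 (48.5% over all genes). Genes with both marks included Klf1, the erythroid factor, Tfrc, the transferrin receptor, the heme synthesis genes Cpox and Urod, and Car2. Cpox, coproporphyrinogen oxidase, had H3K4me3 in the top 15.9% (826 bp) and H3K27ac in the top 44.1% (393 bp). Heme synthesis genes and Tfrc are used by all dividing cells too. Globin genes (Hba-a1, Hba-a2, Hbb-bs and Hbb-bt) had neither mark. Slc25a37, mitoferrin, had H3K27ac only (499 bp, top 47.0%), with the nearest H3K4me3 peak 421397 bp away. Of 30 megakaryocyte genes 6 had both, 4 H3K4me3 only, 1 H3K27ac only and 19 neither. The 6 with both were Itgb3, a platelet integrin, F2r, a thrombin receptor, P2ry1, Nbeal2, Rap1b and Gng11. Gp9, a platelet glycoprotein, had a strong H3K27ac peak (chr6:87775038-87775698, top 6.77%, fold 14.0) and its nearest H3K4me3 peak 31066 bp from an end. That H3K27ac peak lay outside the gene (chr6:87776131-87779786). It stood in the strongest of the 10 rank groups, where 0.717% of H3K27ac peaks lay at a gene end, and what it marks was not tested. Pf4, Ppbp, Vwf and Itga2b had neither.

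Genes of other cells were mostly bare, with neither mark at 76.0% to 95.2% of each list against 53.8% of all genes. The lowest share, that of the endothelial list, was no higher than that of myeloid (76.5%) or lymphoid (83.8%) effector genes. In the mast cell, basophil and eosinophil list 1 of 21 genes was marked (Mitf, H3K4me3 only), in the stromal list 2 of 26 (Pdgfrb and Pparg) and in the endothelial list 6 of 25, all H3K4me3 only. Those 6 were Tie1, Flt4, Eng and Sox18, and Esam and Robo4, which are also in the surface list above. Cdh5, Pecam1 and Kdr, which also define endothelium, had neither mark. Of 63 developmental factors of other tissues 60 had neither, with Eya1 and Gbx2 in H3K4me3 only and Tlx3 in H3K27ac only. Of 48 terminal genes of other tissues 45 had neither. The exceptions were Sftpc, the surfactant protein C gene, whose H3K4me3 peak lies 195 bp outside the gene, Mbp, the myelin basic protein gene, and Pomc, with H3K4me3 only (353 bp, top 97.4%). What cells beside LSK cells gave to the lists was not tested.

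**Figure D5:**
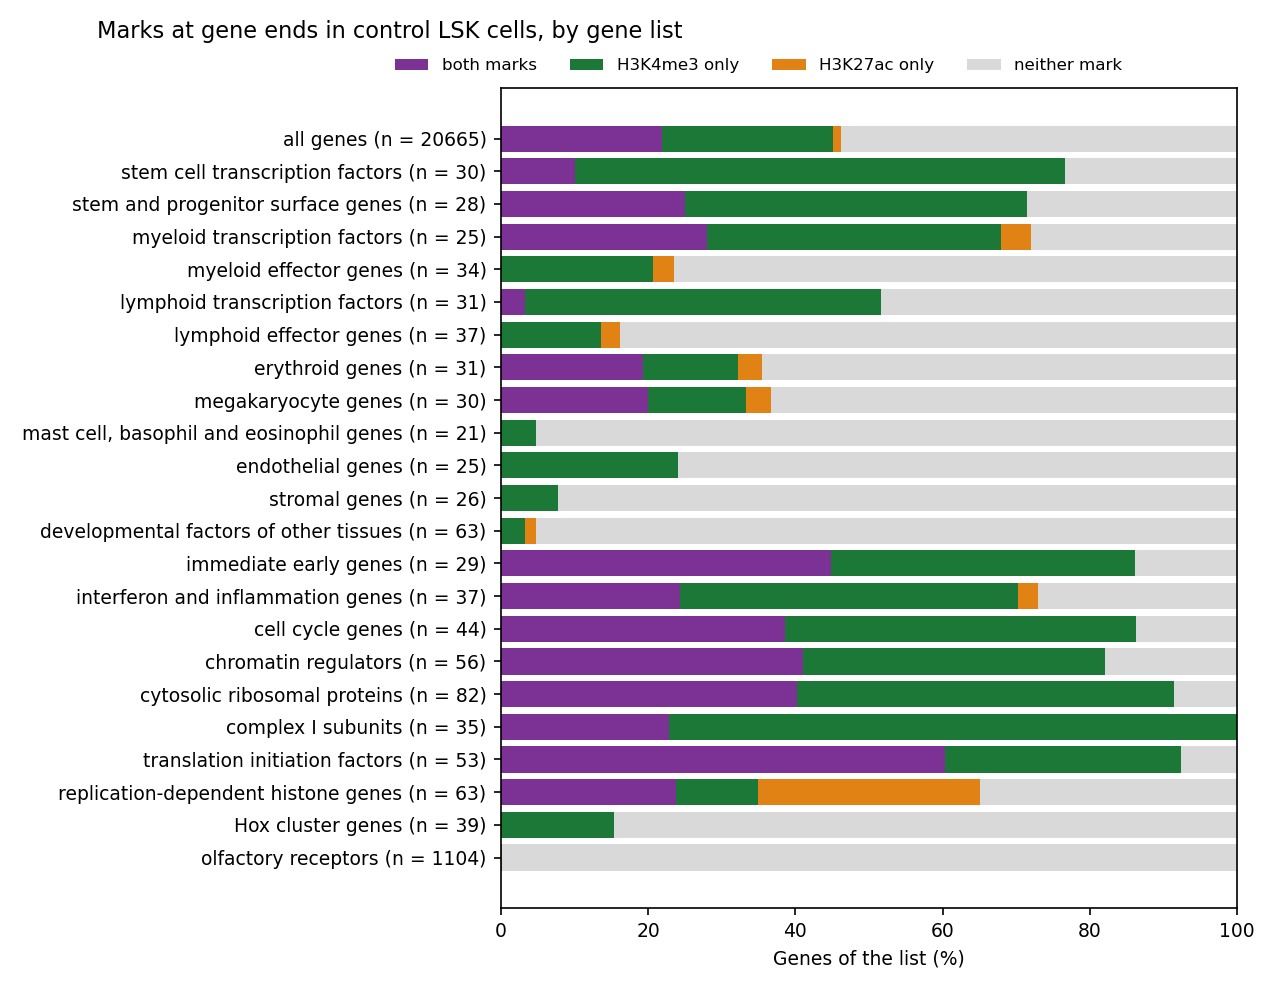
Share of the genes of each list (x axis, %) with both marks, H3K4me3 only, H3K27ac only or neither at a gene end in fl LSK cells; the number of genes is in brackets. Stem cell transcription factors are mostly H3K4me3 only (20 of 30), lineage effector genes mostly bare, and replication-dependent histone genes the one list with many genes in H3K27ac only (19 of 63).

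Genes induced within minutes of a stimulus were often marked. Of 29 immediate early genes 13 had both (44.8% against 21.9% of all), 12 H3K4me3 only and 4 neither. Given H3K4me3, H3K27ac was found at 52.0% of them, near the 48.5% of all genes. Their H3K4me3 was the widest of the lists of 20 or more marked genes, at a median of 1698 bp against 849 bp over all marked genes. Fosb (2416 bp), Dusp2 (2392 bp), Junb (2379 bp) and Ier3 (2263 bp) had both marks, and Fos, with H3K4me3 of 1542 bp in the top 6.26%, had its nearest H3K27ac peak 1433 bp away. In the cKO list 10 of the 12 with H3K4me3 only had H3K27ac at an end (83.3%), against 64.8% of all genes with H3K4me3 only. Of 37 interferon and inflammation genes 9 had both, 17 H3K4me3 only, 1 H3K27ac only (Socs3) and 10 neither. Both marks were at 24.3%, near the 21.9% of all genes, while H3K4me3 was at 70.3% against 45.1%. Given H3K4me3, H3K27ac was found at 34.6% of them, against 48.5% of all genes. Interferon receptor genes (Ifnar1, Ifnar2, Ifngr1 and Ifngr2) had both, and other signal genes were spread, with Stat3 and Rela in both, Stat2, Irf9, Nfkb1 and Relb in H3K4me3 only and Nfkb2 and Tlr4 in neither. Induced effectors were also spread, with Oasl1, Oas1a, Rsad2, Tnf, Ccl3 and Ccl4 in H3K4me3 only and Isg15, Ifit1, Ifit2, Ifit3 and Cxcl10 in neither. Isg15 had peaks of both marks just past the window, at 1316 bp for H3K4me3 and 1261 bp for H3K27ac. For Socs3 the H3K4me3 peak lay 1037 bp from an end.

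Cell cycle genes had both marks at 17 of 44, H3K4me3 only at 21 and neither at 6. These are 38.6% and 47.7%, against 21.9% and 23.3% of all genes, but given H3K4me3 the share with H3K27ac was 44.7%, near the 48.5% of all genes. Cdkn1b, the inhibitor p27, had H3K4me3 in the top 0.431% and H3K27ac of 696 bp, while Cdk6, with the widest H3K4me3 end peak of all genes (3591 bp, fold 3.97), and Pcna (1240 bp, top 4.90%) had H3K4me3 only. Of 56 chromatin regulators 23 had both, 23 H3K4me3 only and 10 neither, so that 50.0% of those with H3K4me3 had H3K27ac, near that of all genes. All 10 with neither held H3K4me3 inside the gene, among them Dnmt3a, Dnmt1 and Arid1a. Ep300, which encodes p300, had both marks with H3K4me3 in the top 0.912%. Kmt2a, an H3K4 methyltransferase gene (1866 bp, top 4.58%), Ncor1 (top 1.33%) and Dek itself (1060 bp, top 3.68%) had H3K4me3 only. All 3 had cKO H3K27ac at an end. So had 21 of the 23 regulators with H3K4me3 only (91.3%), against 64.8% of all genes of that class.

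Among families read by their symbols, 92.5% of 53 translation initiation factors had H3K4me3 and 60.4% both marks, against 45.1% and 21.9% of all genes. A symbol match also counts genes such as Eif2ak1, Eif4ebp1, Ndufa4 and Rps6kl1, and membership was not checked further. All 35 complex I subunits had H3K4me3 but 8 (22.9%) had both. Cytosolic ribosomal protein genes were 33 with both and 42 with H3K4me3 only of 82, mitochondrial ones 36 and 36 of 78, and proteasome subunits 16 and 19 of 38. Of 20 splicing factors of the Srsf and Sf3 families 9 had both and 10 H3K4me3 only, and of 362 solute carriers 77 and 84, with 4 in H3K27ac only, close to the shares of all genes. Given H3K4me3, H3K27ac was found at 44.0% of cytosolic and 50.0% of mitochondrial ribosomal protein genes, 45.7% of proteasome and 47.4% of splicing factor genes, all near 48.5%, and at 65.3% of translation initiation factors and 22.9% of complex I subunits. Of 36 interleukin receptor genes 7 had both (19.4%) and 6 H3K4me3 only (16.7%). Of 99 cytochrome P450 genes these were 2 (2.02%) and 7 (7.07%), where all genes had 21.9% and 23.3%. Among complex I genes Ndufb1 (top 0.441%) had both marks, Ndufs7 (top 7.13%) H3K4me3 only. Of 360 Zfp zinc finger genes 162 had H3K4me3 only (45.0% against 23.3% of all) and 76 both (21.1% against 21.9%). Given H3K4me3, H3K27ac was found at 31.9% of Zfp genes, against 48.5% of all genes. The H3K4me3 of Zfp genes was narrow (median of the widest peak 656.5 bp, against 849 bp over all marked genes). Of 1104 olfactory receptor genes 1102 had neither, and of 352 vomeronasal receptor genes 348 had neither. All 49 keratin, 71 defensin and 67 protocadherin genes had neither, against 53.8% of all genes. Of 39 Hox cluster genes 6 had H3K4me3 only (Hoxa3, Hoxa4, Hoxa9, Hoxa10, Hoxb2 and Hoxb4) and 33 neither. The share with H3K4me3 only was 15.4%, against 23.3% of all genes.

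H3K27ac without H3K4me3 was rare, and replication-dependent histone genes made up 19 of its 212 genes. They are the genes of core and linker histones that are copied in S phase and lie in clusters. Of the 63 such genes, 15 had both, 7 H3K4me3 only, 19 H3K27ac only (30.2% against 1.03% of all genes) and 22 neither. Of the 19, 17 lay in the cluster on chromosome 13 (chr13:21715711-23764412) and 2 in that on chromosome 3. Several share a peak, as do H2ac12 and H2bc12 (chr13:22035133-22035561, top 46.8%) and H2ac4 and H3c2. The 31 chromosome 13 histone genes with either mark had 13 distinct best H3K27ac peaks among them. How many of these lay behind the 17 genes alone was not counted. H2ac12 lay 12913 bp from the nearest H3K4me3 peak. All 19 had H3K27ac in the cKO list, and 3 had cKO H3K4me3. The linker histone genes H1f4 and H1f2 had both marks, with H3K4me3 of 1452 and 1287 bp. Histone genes are near-identical copies, so how reads were assigned among them can move these peaks, and that was not tested.

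The other H3K27ac-only genes with the best ranked peaks were Pld5 (rank 220 of the list, chr1:176282233-176282916), Gp9 (662), Olfr38 (669), Cndp1 (727), Lipo2 (1072), Vmn1r48 (1947), Pole4, a subunit of DNA polymerase epsilon (2956), Ocel1 (3027), Fam177a2 (3330) and Zfp433 (3354). Olfr38 encodes an olfactory receptor and Vmn1r48 a vomeronasal receptor. Vmn1r48 had the widest H3K27ac end peak of all genes, at 1893 bp. Of the 212 genes, 10.8% had predicted symbols against 2.59% with both marks and 7.21% of all genes. A H3K4me3 peak lay inside 15 of them and 1 to 500 bp past the window in 14.

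The genes best ranked in both lists together included Ndel1, Flcn, Daxx, Ing2, Cs, Vdac2, Bzw1 and the pair Fancm and Fkbp3, which share their peaks. They include Flcn, the folliculin tumour suppressor, Daxx, a histone H3.3 chaperone, Ing2, a reader of H3K4me3, Cs, citrate synthase, and Vdac2, a mitochondrial channel. The H3K4me3 ranks of those named ran from 9 (Fancm and Fkbp3) to 120 (Cs) and their H3K27ac ranks from 1627 (Ndel1) to 2331 (Fancm and Fkbp3). The best ranked genes with H3K4me3 only were Sfpq, a splicing factor (rank 5), Picalm, a clathrin adaptor (8), Rps25 and Trappc4 (10, a shared peak), Tle5 (18), Madd and Nr1h3 (29, a shared peak), Tcea1 (30), Parp8 (39) and Ddx6 (40). For Sfpq, Parp8 and Ddx6 an H3K27ac peak lay just past the window, 1368, 1369 and 1080 bp from an end, while for Picalm the nearest was 233910 bp away. All of these but Parp8 and Ddx6 had H3K27ac at an end in the cKO list. That list had it at 64.8% of all genes with H3K4me3 only. Of all genes in the best of 5 H3K4me3 rank groups it was 91.4%.

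The widest single H3K4me3 peaks lay at Cdk6 (3591 bp), Zfp36l2, an RNA decay factor (3205 bp), Msl2 (3142 bp), Ppp1r9b (3063 bp), Cramp1l and Ift140 (3006 bp, a shared peak), Rnf220 (2976 bp) and Cux1 (2837 bp). Of these 8 genes Zfp36l2, Msl2, Cramp1l and Ift140 had both marks and the other 4 H3K4me3 only, and the folds of the wide peaks were low, such as 4.03 at Zfp36l2. The widest H3K27ac end peaks after Vmn1r48 lay at Mgat2 and Rpl36al (1161 bp, shared), Stt3b (1119 bp), Pafah1b1 (1102 bp), Gid4 (1046 bp), Elmo1 (1028 bp) and Clk3 (1026 bp), all with H3K4me3 as well.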

How the data were processed

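The authors deposited 1 peak list per library. The submitters' processing notes name mm10, MACS2, Bowtie2 and Picard; their versions and the caller's threshold were not given in the sources used here. In the deposited lists the score is 10 times −log10 p, the fold enrichment (a ratio) is the summit over the caller's background, and the −log10 q-value and −log10 p-value come from the authors' peak caller. Each was compared only among peaks of 1 list, for ranks and filters. Peaks on chromosomes 1 to 19 were matched to RefSeq genes of GRCm38.p6, whose table gives no strand, so both ends were used; strand came from the promoter table (16457 genes). From the DEK lists 9 irregular rows were left out, and from the fl LSK lists 0. Conditions were not tested, as each mark had 1 library. The classing and overlap code was run on simulated peaks with known answers and returned them. Of 588 list genes 577 were found. Members, lists and the rule for named genes (best ranked per class, widest peaks, list members, family exceptions) were chosen with earlier results of these data known. Python 3.11.15 was used, with matplotlib 3.10.9, scipy 1.17.1, pandas 2.3.3 and numpy 2.4.6. A few genes that the rule names are not reported here.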

Additional observations from a re-analysis of the deposited data

How the results depend on the processing

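Of 49 alternative values, 36 counted as close to the value reported and 13 as moved, by unlike rules. A class count was close within a set ratio, wide enough to take 6726 against 4809 genes with H3K4me3 only as close. Overlap shares and widths were held to 95% intervals, so 907 against 923 bp counted as moved. Counts over the 16457 genes with a known strand were set against those over all 20665. A window of 2.5 kb put genes with both marks (5032) above those with H3K4me3 only (4926). The 0.5 kb window, the start alone and leaving out predicted symbols kept the order of the classes. With peaks under a −log10 q of 10 left out, genes with both marks fell to 1591 and with H3K27ac only to 88, and with the 5000 best ranked peaks of each list they were 1174 and 379. H3K4me3 peaks that overlap H3K27ac were 41.9% with an overlap of 0.5 of the shorter peak, 42.1% and 17.8% with peaks under 5 or 10 left out, and 21.6% with the 5000 best; H3K27ac peaks that overlap H3K4me3 were 44.1%, 44.5%, 29.1% and 21.6%. The median H3K4me3 width at genes with both marks was 907 bp by the widest single peak. Using any start in the promoter table, chosen after seeing the data, gave 3914 genes with both marks and 163 with H3K27ac only among 16457, where both ends of the same genes gave 3734 and 178. No paired analysis was possible because each mark had 1 library and no test was run. Unknown depth limits what an absent peak shows.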

Other observations

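Long non-coding and microRNA genes showed the same order of classes. Of 12408 lncRNA genes 637 had both marks, 787 H3K4me3 only and 81 H3K27ac only. Of the 9751 with no protein-coding gene end within 2 kb, the counts were 93, 200 and 51, so that away from coding promoters H3K27ac without H3K4me3 made up a larger part of the marked genes. Of 901 microRNA genes so placed, 8 had both marks, among them Mirlet7i with H3K4me3 of 1426 bp and Mir148a, 15 had H3K4me3 only, among them Mir132 and Mir212 on a shared peak of 758 bp, and Mir210 and Mir1966 had H3K27ac only.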
